A study of Picea abies with 36 samples.

Results

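Hypocotyls of Norway spruce (Picea abies) seedlings that had received the cytokinin BAP together with the auxin IAA were compared with Mock hypocotyls 10 days after the application. The comparison used 6 of the 36 libraries of the series, the 3 labelled BAP+IAA at 10 days and the 3 labelled Mock at 10 days, and these were taken by their labels alone. The combination group carried 135 mM BAP (6-benzylaminopurine) and 50 mM IAA (indole-3-acetic acid), put on in lanolin a single time to the mid-hypocotyl of seedlings about 2 weeks old. Mock seedlings were of the same age and were collected on the same day, and the labels do not describe the Mock preparation further. The other 30 libraries are BAP alone and IAA alone on day 5, 10 and 15, and the combination and Mock on day 5 and 15, with 3 libraries a group. The labels name no plants or pools behind the replicates, and the spread that the p-values rest on may therefore be technical. The columns of the count table carry a collection number from 1 to 3, read here as the order of the collection days.

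The hypocotyl is the stem below the cotyledons and in conifer seedlings is a common site for adventitious root formation. Cytokinins are read by histidine kinase receptors that pass phosphate to response regulators in the nucleus. Auxin joins TIR1-type receptors to Aux/IAA repressors, which are then degraded and free the auxin response factors. In many plants auxin promotes rooting of stem tissue and cytokinin opposes it, and both hormones are needed for callus growth in culture. The table gives gene model identifiers without gene names, so no gene here can be assigned to these pathways and the tissue label could not be checked against marker genes. Genes are therefore described by their levels, their time course and their response to each hormone. In whole-tissue RNA, fewer cells of a type and less RNA per cell cannot be told apart.

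The 6 libraries held 12906630 to 17873110 reads in gene models, within the range of the series (12531117 to 22280720). Levels are given as CPM, counts scaled to library size with TMM factors, and 3 reads in a library correspond to 0.168 to 0.232 CPM. Replicates correlated at r = 0.964 to 0.970 in the combination and 0.960 to 0.977 in Mock across genes, which are not independent replicates. The chi-square per degree of freedom between replicates was 6.82 to 12.8, above the value of sampling noise alone, and each library was counted as a sample.

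After 10 days under both hormones, 8728 genes were higher and 8155 lower than in Mock. These are 22.8% and 21.3% of the 38239 gene models tested, together 44.2% (edgeR quasi-likelihood test, Benjamini-Hochberg adjusted p below 0.05). Most of the rises and falls were modest. The median fold was 1.87 among the higher genes, with quartiles of 1.49 and 3.73, and 2.12 among the lower genes, with quartiles of 1.53 and 4.45. The 3 combination libraries lay above all 3 Mock libraries at 8256 of the higher genes, and below them at 7779 of the lower genes. Over all tested genes, called or not, 26.7% were separated upward and 25.8% downward. The median log2 change over all tested genes was 0.01. Of the 21356 genes without a call, 16699 differed by less than 1.5-fold and 2039 by 2-fold or more, and the missing call does not show that those genes were unchanged.

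**Figure D1:**
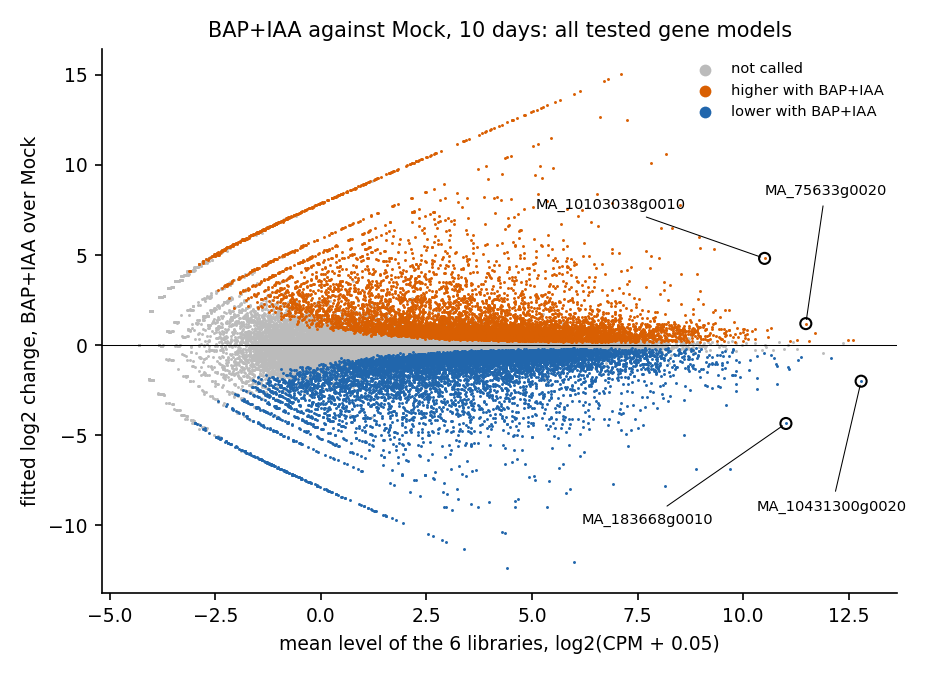
Fitted log2 change of BAP+IAA over Mock at 10 days (vertical axis) against the mean level of the 6 libraries on a log2 scale (horizontal axis) for the 38239 tested gene models, with the 8728 higher genes in orange, the 8155 lower genes in blue and genes without a call in grey. Called genes occur over most of the range of levels, points along the outer straight edges are models without a read in a group (their fitted change is no bound), and the 4 circled models are those with the largest gains and losses in CPM.

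Steep changes were found in both directions. At least 2-fold differences were called at 3902 higher and 4360 lower genes (10.2% and 11.4% of those tested), and at least 4-fold differences at 2073 and 2249 (5.42% and 5.88%). Rises of at least 16-fold numbered 670 (1.75%) and falls of that size 549 (1.44%). For these folds a group with fewer than 3 reads was set to 3 reads over the group, so a fold against an empty group is a lower bound.

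The share of genes called rose with abundance, measured as mean CPM over the 30 libraries outside the comparison. Below 1 CPM 25.8% of 5935 genes were called, from 1 to 10 CPM 36.7% of 17503, from 10 to 100 CPM 58.5% of 12899, and over 100 CPM 72.6% of 1902. Low counts give less power, so these shares do not show that scarce genes responded less often. Among the genes over 100 CPM, 838 were higher and 542 lower, while below 1 CPM 696 were higher and 838 lower. Most of those 30 libraries were hormone-treated, so a gene raised by the hormones tends to fall in a higher class. The split by direction is therefore partly set by the measure. The median fold among called genes went the other way, from 8.84 for rises and 7.47 for falls below 1 CPM to 1.62 for both over 100 CPM. A scarce gene needs a larger fold to be called, so these medians do not show that scarce genes changed more steeply.

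The genes that gained and lost most reads were named by their difference in mean CPM, among genes with a call, separated libraries and at least 1 CPM. The rule admitted 7568 higher and 7052 lower genes, and the first 2 on each side are given here. Since the files do not pair the identifiers with names, nothing can be said of what these genes encode.

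MA_10103038g0010 had the largest gain. It stood at 82.5, 184 and 33.8 CPM in the Mock libraries and at 2409, 3006 and 3034 CPM in the combination libraries. Even the highest Mock library was far below the lowest combination library. Its mean went from 100.1 ± 76.5 to 2816 ± 353 CPM (SD, n = 3), a log2 change of 4.82 ± 0.52 (SE; edgeR adjusted p = 3.4e-08). The pooled fold was 29.8, and the size of the change depended on single Mock libraries. The log2 change was 5.59 without replicate 2 of Mock and 4.40 without replicate 3 of Mock. Its rank by share of reads went from 1865 in Mock to 10 in the combination. BAP alone gave 1531, 1134 and 1888 CPM and IAA alone 3690, 4320 and 4023 CPM on the same day. The combination lay between them, and neither direct difference was called (log2 0.89 above BAP, edgeR adjusted p = 0.17, and log2 -0.51 from IAA, adjusted p = 0.43).

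MA_75633g0020 had the next largest gain and started from a high level. It was at 1640, 1779 and 1810 CPM in Mock and 3864, 4000 and 4126 CPM in the combination. The spread within both groups was small, so a 2.29-fold rise gave a log2 change of 1.20 ± 0.07 (SE; edgeR adjusted p = 3.9e-13). Here the combination was above both single hormones. BAP alone was at 3228 ± 76.6 CPM and IAA alone at 2951 ± 222 CPM (SD, n = 3), and the combination exceeded them by 0.31 and 0.44 on the log2 scale (edgeR adjusted p = 0.0024 and 2e-05).

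MA_10431300g0020, the most abundant model of the Mock libraries, had the largest loss. It held 10595, 10709 and 12829 CPM in Mock and 3024, 2609 and 2913 CPM in the combination, which moved it from rank 1 to rank 9. The log2 change was -2.00 ± 0.22 (SE; edgeR adjusted p = 2.7e-08). With BAP alone it kept 5243 ± 1484 CPM and with IAA alone 2286 ± 548 CPM (SD, n = 3). The combination was below BAP (log2 -0.88, edgeR adjusted p = 0.0034), while its difference from IAA was not called (log2 0.32, adjusted p = 0.28).

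MA_183668g0010 fell from rank 7 in Mock to rank 836. Its Mock libraries were at 2941, 2820 and 6076 CPM, replicate 3 being the high one, and the combination libraries at 184, 243 and 155 CPM. The groups were far apart, with a log2 change of -4.34 ± 0.39 (SE; edgeR adjusted p = 1.3e-09). Without replicate 3 of Mock the log2 change was -3.89. BAP alone left 779 ± 230 CPM and IAA alone 239.6 ± 86.3 CPM (SD, n = 3). The combination was again below BAP (log2 -2.00, edgeR adjusted p = 0.00017), and its difference from IAA was not called (log2 -0.30, adjusted p = 0.56).

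**Figure D2:**
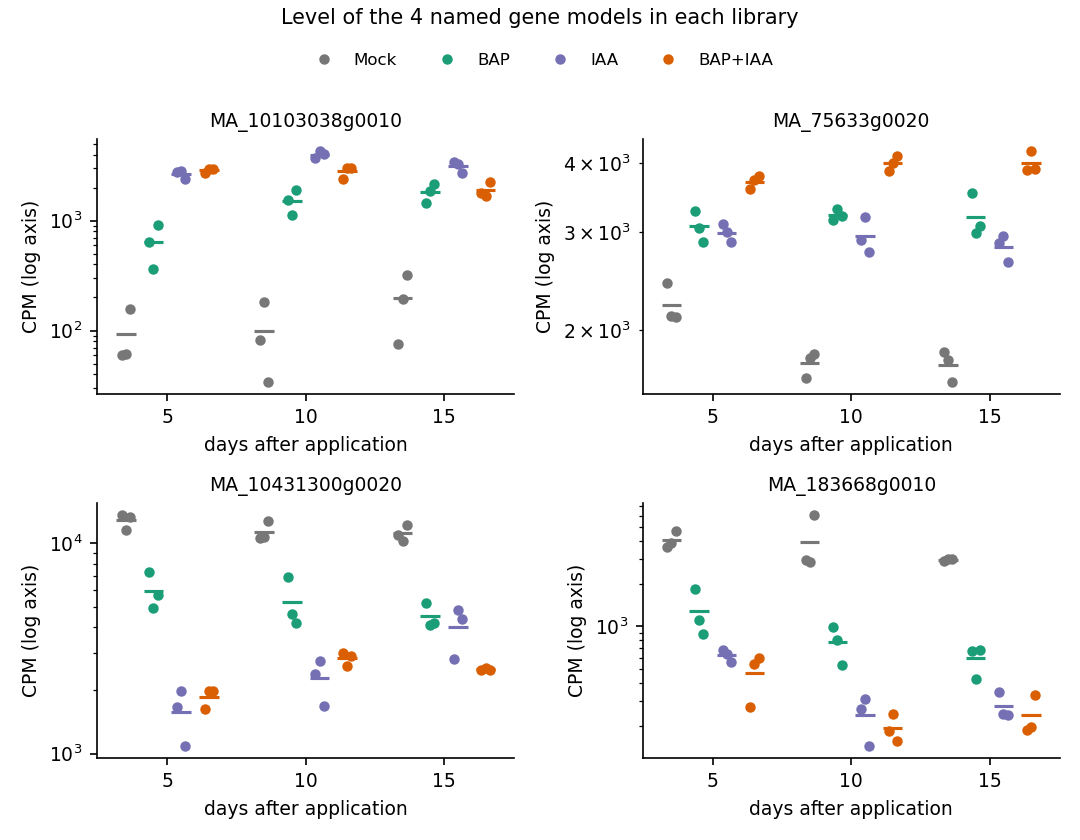
Level in CPM (log axis) of the 4 named gene models in each library, by day and treatment, with a point per library and a line at the mean of 3 libraries. At 10 days the combination libraries of MA_10103038g0010 sit at 2409 to 3034 CPM against 33.8 to 184 CPM in Mock, and those of MA_183668g0010 at 155 to 243 CPM against 2820 to 6076 CPM.

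On the other days, whose levels had no part in naming them, all 4 genes were called in the same direction as at 10 days. MA_10103038g0010 changed by a log2 of 4.97 at 5 days and 3.28 at 15 days, and MA_75633g0020 by 0.74 and 1.21. MA_10431300g0020 changed by -2.78 and -2.15, and MA_183668g0010 by -3.10 and -3.63. The edgeR adjusted p ran from 1.6e-13 to 4.2e-06 over these 8 tests. A difference between days was called once among the 4 genes, at MA_75633g0020, whose effect at 10 days exceeded that at 5 days by a log2 of 0.46 (edgeR adjusted p = 0.012).

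The change was spread over many genes on the gaining side as well as on the losing side. Comparing mean shares of reads, 23.2% of all reads lay in different gene models in the combination and in Mock. It took 536 models to make up 50% of the gain and 351 to make up 50% of the loss. The 10 largest gains amounted to 1.37% of the reads and the 10 largest losses to 2.63%. The 100 largest gains and losses came to 5.43% and 7.63%.

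The libraries themselves were less dominated by a few models under both hormones. In the combination libraries 4.04 to 4.32% of the reads fell to the top 10 models, and in Mock 4.74 to 5.46%, without overlap. For the top 100 the means were 15.0 ± 0.362% and 16.9 ± 0.337% (SD, n = 3). Each difference had an exact 2-sided permutation p of 0.1, the smallest that 3 against 3 libraries can give. The number of models with a read, thinned to 12531117 reads a library, was 40849 ± 190 in the combination and 41026 ± 179 in Mock (SD, n = 3; exact permutation p = 0.4), with overlapping libraries.

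The 100 models most abundant in Mock on days 5 and 15 were read in the 10-day libraries, which had not chosen them. Of these 56 were lower in the combination and 23 higher, against 21.3% and 22.8% over all tested genes. They held 16.4, 16.9 and 17.2% of the reads in the 10-day Mock libraries and 12.4 ± 0.363% in the combination libraries (SD, n = 3), without overlap. The 100 models most abundant in the combination on days 5 and 15 showed the reverse, with 64 higher and 15 lower at 10 days. Their share was 13.5 ± 0.230% in Mock and 14.6 ± 0.301% in the combination (SD, n = 3). Over 100 CPM, 72.6% of all genes were called, so a high share of calls is shared by abundant genes at large. A set chosen as abundant under a treatment tends to read lower in the other group on any day. The directions in the 2 sets therefore describe them only.

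Some genes had reads on one side alone. A total of 362 gene models had no read in any 10-day Mock library and a read in all 3 combination libraries, and 319 of them were called. In the combination their levels ran from 0.0659 to 283 CPM with a median of 0.978 CPM, and 46 reached 10 CPM. The reverse, no read in the combination and a read in every Mock library, applied to 177 models, of which 165 were called. Their Mock levels ran from 0.0895 to 43.3 CPM with a median of 0.985 CPM, and only 6 reached 10 CPM. A count of 0 over a group allows up to 3 reads over its libraries, and this limit covers counting error only. Both sets were chosen on the libraries that the test used, so most of their calls follow from the choice. Over all tested genes 22.8% were called higher and 21.3% lower.

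Both sets were read in the libraries of the other days. Of the 362 models, 252 had no Mock read at 5 days either, 235 had none at 15 days, and 189 had none on both days. The combination was called above Mock at 213 of them at 5 days and at 296 at 15 days, where 21.3% and 22.9% of all tested genes were. Of the 177 models, 140 were called below Mock at 5 days and 133 at 15 days, where 21.9% and 21.1% of all tested genes were. No read was seen with both hormones for 58 of them at 5 days, for 90 at 15 days and for 34 on both days.

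The 46 models without a Mock read and with 10 CPM or more were followed in each library. Summed over the 46, the combination stood at 1563, 3676 and 2183 CPM at 10 days, with all 46 detected in each library. Replicate 2 was the high one, and the median over the 46 was 20.7, 56.5 and 29.1 CPM. At 10 days the sum was 2.89, 10.0 and 10.6 CPM with BAP alone and 81.2, 114 and 151 CPM with IAA alone. Since the set was chosen on these combination and Mock libraries, its high level on that day is a description, also beside the single hormones. In the combination the sum was 307, 193 and 197 CPM at 5 days and 1016, 650 and 1189 CPM at 15 days. Every 15-day library was above every 5-day library, and the 10-day level, on which the set was chosen, was higher than both. Mock held at most 3.21 CPM in sum in any library of the other days. With BAP alone at 15 days a read was found for all 46 models, at a median of 0.631 CPM, whereas 28 of them had none with IAA alone.

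**Figure D3:**
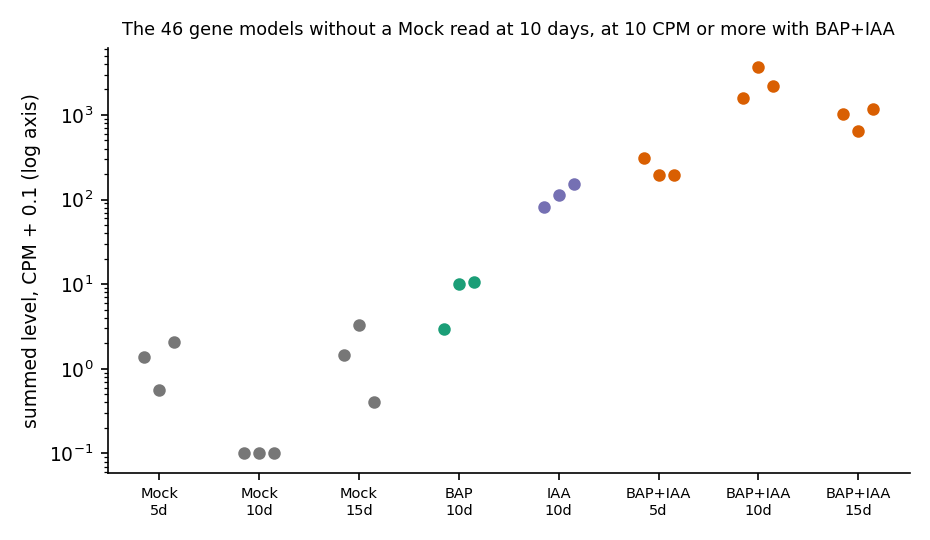
Summed level (CPM plus a constant of 0.1, log axis) of the 46 gene models with no Mock read at 10 days and at least 10 CPM with BAP+IAA, with a point per library. The combination libraries sit at 193 to 307 CPM at 5 days, 1563 to 3676 CPM at 10 days, on which the set was chosen, and 650 to 1189 CPM at 15 days, and at 10 days BAP alone is at 10.6 CPM or less and IAA alone at 151 CPM or less.

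The 10-day response was compared with the same contrast on days 5 and 15, which sets other libraries against each other. All contrasts share the estimate of the spread, which came from all 36 libraries. On day 5 43.2% of the tested genes were called (21.3% higher, 21.9% lower), and on day 15 43.9% (22.9% higher, 21.1% lower). Of the 8728 genes higher at 10 days, 6055 were higher at 5 days and 6258 at 15 days, and 4887 (56.0%) on all 3 days. Of the 8155 lower genes, 6145 were lower at 5 days and 6123 at 15 days, and 5115 (62.7%) on all 3 days. Neither day gave a call at 1271 higher and 967 lower genes (14.6% and 11.9%), which does not show that those genes moved at 10 days alone.

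The steepest responses were read on the other days as well. Of the 670 genes raised at least 16-fold at 10 days, 550 were higher at 5 days and 635 at 15 days, with median folds of 22.1 and 31.4 there against 35.7 at 10 days. Of the 549 genes lowered that far, 508 were lower at 5 days and 527 at 15 days. A set chosen for a high fold on a day tends to read lower on any other day, so the 10-day medians are not shown to be higher.

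Genes were also chosen on days 5 and 15 and read in the 10-day libraries. Of 5744 genes higher on both of those days, 4887 (85.1%) were higher at 10 days, with a median fold of 1.97. Of 5734 lower on both, 5115 (89.2%) were lower, with a median fall of 2.18-fold. Of the 780 genes raised at least 16-fold at 5 days, 687 were higher at 10 days with a median fold of 17.0, and of the 1005 raised that far at 15 days, 767 were higher with a median fold of 14.3. For falls of that size, 316 of 336 (5 days) and 513 of 530 (15 days) were lower at 10 days, by medians of 20.9-fold and 20.4-fold. Genes called in opposite directions on days 5 and 15 numbered 59 and 93, and their median fold at 10 days was 1.09 and 1.03.

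**Figure D4:**
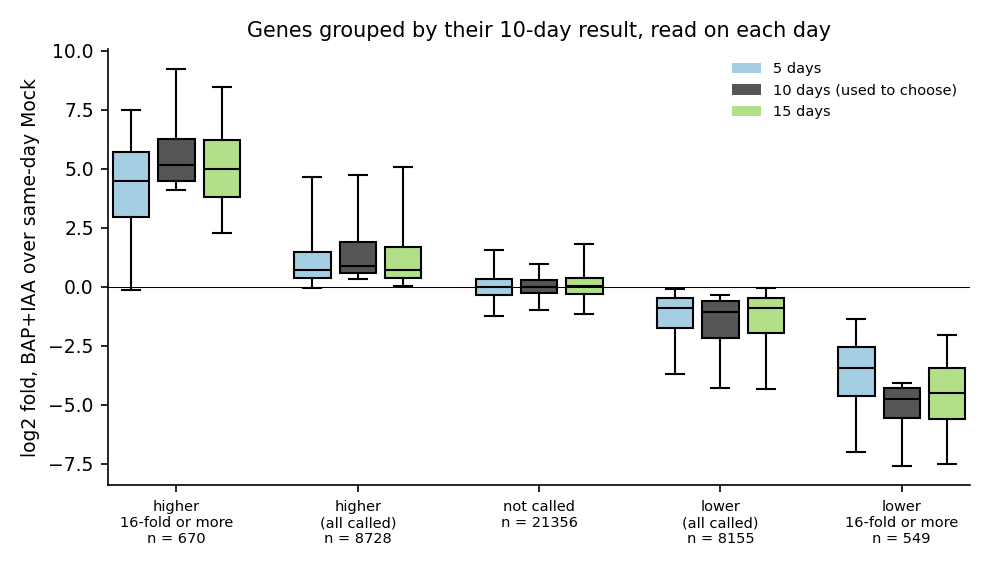
Log2 fold of BAP+IAA over same-day Mock (vertical axis) for genes grouped by their 10-day result, read at 5, 10 and 15 days, with the box at the quartiles, the line at the median and whiskers at the 5th and 95th percentiles. The 670 genes raised at least 16-fold at 10 days have a median fold of 22.1 at 5 days and 31.4 at 15 days.

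Differences in effect between days were tested directly and were called at far fewer genes. The effect at 10 days differed from that at 5 days at 841 genes (2.2%), of which 407 (1.06%) had a more positive and 434 (1.13%) a more negative effect at 10 days. The effect at 15 days differed from that at 10 days at 539 genes (1.41%), more positive at 327 (0.855%) and more negative at 212 (0.554%). Among the 407 genes the median fold over Mock was 0.674, 1.34 and 1.18 in order of day. Among the 434 it was 0.657, 0.217 and 0.203. These medians are of genes chosen on that difference and describe them only.

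The counts between days varied with the libraries kept. Leaving out any library also lowers the power, and how much of each fall is due to that was not tested. The 841 became 504 without replicate 2 of the 5-day combination, 503 without its replicate 3 and 484 without replicate 3 of the 10-day combination. The 407 fell to 189 and 190 without replicates 2 and 3 of the 5-day combination, to 257 and 244 without replicates 1 and 3 of the 10-day combination, to 251 and 263 without replicates 1 and 3 of the 10-day Mock, and to 271 without replicate 1 of the 5-day Mock. The 434 fell to 240 without replicate 3 of the 10-day combination. The 539 became 68 without replicate 1 of the 10-day Mock, 93 without replicate 3 of the 10-day combination, 299 and 151 without replicates 1 and 2 of the 15-day combination, and 258, 213 and 168 without replicates 1, 2 and 3 of the 15-day Mock. Other omissions moved the counts less. Without replicate 1 of the 5-day combination the 841 became 829, and without replicate 2 of the 10-day combination 861. Without replicate 3 of the 15-day combination the 539 became 679. DESeq2 called 1383 and 1067.

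Of the 38239 tested genes, 47 had a 10-day effect called below that of both other days, and 7 had one called above both. At 10 days 23 of the 47 were called lower than Mock and 1 higher, where 21.3% and 22.8% of all tested genes were. The median fold of the 47 was 2.48, 0.353 and 2.87 in order of day. They were chosen on these differences, so the low 10-day fold follows from the choice and the values describe them only. The median level in Mock was 18.7, 9.83 and 6.02 CPM in replicates 1, 2 and 3 at 10 days, against 3.75 to 4.003 CPM at 5 days and 4.47 to 6.07 CPM at 15 days. In the combination it was 4.40, 3.84 and 2.17 CPM at 10 days, against 10.1 to 12.6 CPM at 5 days and 7.16 to 14.2 CPM at 15 days. By this median, replicates 1 and 2 of the 10-day Mock were above every other Mock library. All 3 combination libraries of that day were below those of the other days. Summed over the 47 genes, replicate 2 of the 10-day Mock (1881 CPM) was below replicate 1 of Mock at 5 days (2049 CPM) and at 15 days (1990 CPM). The combination sums were below the Mock sums on every day, so the median folds do not describe the summed level. Both differences use the same 6 libraries, and replicate 1 of the 10-day Mock, the highest here, is the library without which the count for 15 against 10 days was 68.

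Changes over time within a group were called far more often in the combination than in Mock, and the difference of these counts was not tested. Between 5 and 10 days 3286 genes changed in the combination (8.59%) and 36 in Mock (0.0941%). Between 10 and 15 days 2618 genes changed in the combination (6.85%) and 0 in Mock with edgeR (38 with DESeq2 and 2 with limma-voom). In that Mock test 2015 of 38239 genes had an unadjusted edgeR p below 0.05, a limit that a share of 0.05 of unchanged genes passes. The 3286 became 2118 and 2006 without replicates 1 and 3 of the 10-day combination, and 2034 and 2035 without replicates 2 and 3 of the 5-day combination. The 2618 became 874 without replicate 3 of the 10-day combination, 1602 and 1079 without replicates 1 and 2 of the 15-day combination, and 719 when fitted on those groups alone. The 36 in Mock became 11 and 5 without replicates 1 and 2 of day 5, and 4, 2 and 11 without replicates 1, 2 and 3 of day 10. DESeq2 called 249 there, and the 0 became 1 without replicate 3 of day 10.

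The combination was set against each single hormone directly at 10 days. No Mock level enters these contrasts, although the filter, the scaling and the spread came from the model of all 36 libraries. Against BAP, 20.2% of the tested genes were called, 4323 (11.3%) with more reads in the combination and 3411 (8.92%) with fewer. Against IAA, 30.1% were called, 5298 (13.9%) with more and 6212 (16.2%) with fewer. The larger side switched when libraries were scaled by their totals alone. The counts against BAP were then 3282 with more and 4827 with fewer, and the median gene shifted by a log2 of -0.10. Those against IAA were 6235 and 5560. The count against BAP was 4859 when only those 6 libraries were fitted. The same comparisons called 24.6% (BAP) and 12.6% (IAA) of genes at 5 days, and 14.4% and 29.3% at 15 days. The change of these shares with time was not tested.

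The distance between libraries is given as the percentage of reads that lie in different gene models in a pair of libraries, which includes sampling noise. At 10 days the 9 pairs of combination and Mock libraries differed by 22.9 to 25.01%, with a median of 23.9%. Pairs within the combination differed by 7.03 to 7.95% and pairs within Mock by 5.84 to 8.19%. The combination was 11.4 to 16.7% from BAP libraries and 18.4 to 20.0% from IAA libraries, so every BAP pair was nearer than every IAA pair. At 5 days the order was the opposite, 15.3 to 18.9% from BAP and 10.9 to 13.1% from IAA. At 15 days it was again nearer to BAP, at 10.7 to 14.7% against 17.7 to 19.9%. The pairs share libraries and were given no test.

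**Figure D5:**
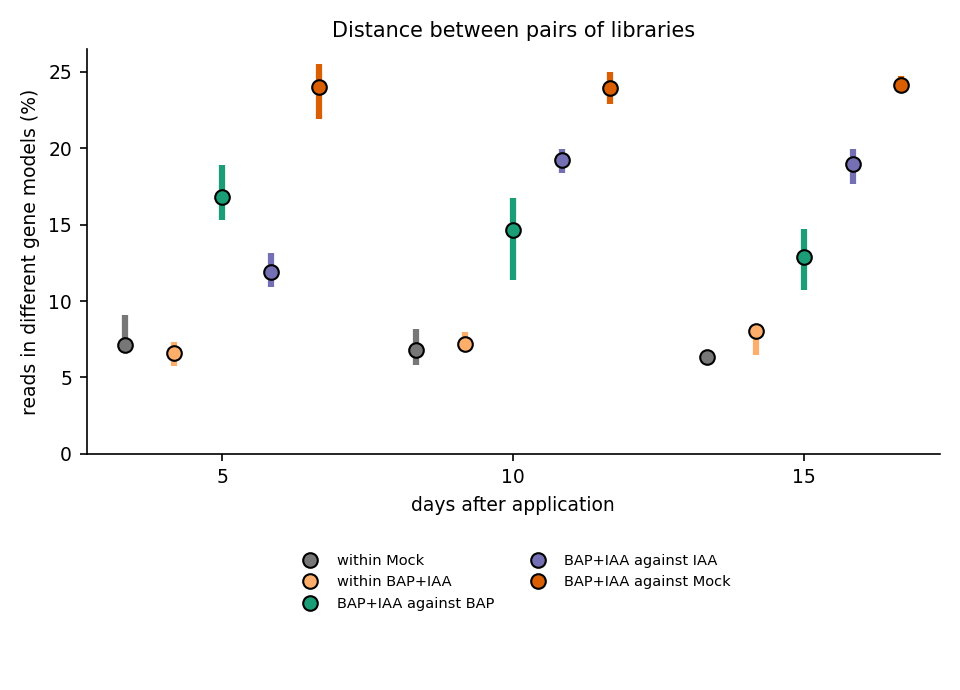
Percentage of reads lying in different gene models (vertical axis) for pairs of libraries by day, with the dot at the median and the bar from the lowest to the highest pair. At 10 days combination and Mock pairs sit at 22.9 to 25.01%, pairs with IAA at 18.4 to 20.0%, pairs with BAP at 11.4 to 16.7%, and replicates of a group at 8.19% or less.

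Levels under each hormone alone were read for the genes with the steepest changes under both. For the 670 genes raised at least 16-fold, the median level at 10 days was 0.0671 CPM in Mock, 0.651 CPM with BAP, 1.55 CPM with IAA and 6.88 CPM with both. The median fold over Mock was 4.83 with BAP (quartiles 0.969 and 11.6), 8.14 with IAA (quartiles 1.74 and 34.6) and 35.7 with both. These comparisons share the Mock libraries, and the set was chosen on the combination. As a sum at 10 days, the 670 genes held 2.81 ± 0.119% of the reads with IAA alone and 2.64 ± 0.606% with both (SD, n = 3). With IAA alone and with both, the mean sums were 2.09 and 2.38% at 5 days, and 2.65 and 2.36% at 15 days. Tested against the single hormones in the libraries of the other days, the combination was above BAP at 463 of the 670 genes at 5 days and 389 at 15 days, where 13.4% and 8.32% of all genes were. It was above IAA at 189 and 359, where 5.79% and 13.4% of all genes were, and below IAA at 63 and 90. Among all 8728 genes higher at 10 days, the combination was above BAP at 3232 at 5 days and 2245 at 15 days. In the same 8728 genes it was above IAA at 943 and 3065, and below IAA at 798 and 567. Part of the excess over all tested genes is thus common to higher genes.

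The 549 genes lowered at least 16-fold had median levels of 6.11 CPM in Mock, 0.824 CPM with BAP, 1.47 CPM with IAA and 0.132 CPM with both. Their median fall was 6.91-fold with BAP, 3.66-fold with IAA and 26.9-fold with both. In the libraries of the other days the combination was below BAP at 226 of these genes at 5 days and 197 at 15 days, where 11.2% and 6.07% of all genes were. It was below IAA at 78 and 404, where 6.84% and 16% of all genes were. Among all 8155 genes lower at 10 days, it was below BAP at 2685 at 5 days and 1691 at 15 days, and below IAA at 806 and 3301. Part of this excess is thus common to lower genes.

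A smaller group exceeded Mock and both single hormones at 10 days. The combination was above each of the other 3 groups at 1386 genes (3.62%) and below each at 1203 (3.15%), counting genes called in all 3 tests, which share the combination libraries. The median levels of the 1386 genes were 9.39 CPM in Mock, 13.5 CPM with BAP, 13.6 CPM with IAA and 33.8 CPM with both. Over all tested genes, 605 (1.58%) were above all 3 groups of their day at 5 days and 1213 (3.17%) at 15 days, so the sets to compare with differ in size. Of the 1386 genes, 265 (19.1%) were among the former and 746 (53.8%) among the latter. Their median levels at 15 days were 9.93 CPM in Mock, 14.8 CPM with BAP, 13.6 CPM with IAA and 27.2 CPM with both. At 5 days IAA alone stood nearer to the combination, at 21.5 CPM against 26.7 CPM. Compared with Mock alone, 1097 of the 1386 (79.1%) were higher at 5 days and 1221 (88.1%) at 15 days. Among all 8728 genes higher at 10 days these shares were 69.4% and 71.7%, so much of this persistence is common to higher genes.

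The 1203 genes below all other groups had medians of 21.7 CPM in Mock, 10.2 CPM with BAP, 16.3 CPM with IAA and 4.24 CPM with both. Over all tested genes, 276 (0.722%) were below all 3 groups of their day at 5 days and 1071 (2.8%) at 15 days. These included 102 (8.48%) and 600 (49.9%) of the 1203 genes. At 5 days the medians were 20.3 CPM in Mock, 10.2 CPM with BAP, 8.58 CPM with IAA and 6.33 CPM with both. Against Mock alone, 1062 of the 1203 (88.3%) were lower at 5 days and 1093 (90.9%) at 15 days. Over all tested genes the shares were 21.9% and 21.1%. Among all 8155 genes lower at 10 days they were 75.4% and 75.1%, so much of this persistence is common to lower genes.

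Together the 8728 higher genes took 26.6, 27.3 and 26.6% of the reads in the 10-day Mock libraries and 47.5, 48.2 and 48.3% in the combination libraries, as their choice requires. In libraries that did not choose them, their share went from 28.3 ± 0.943% in Mock to 47.4 ± 0.786% in the combination on day 5 and from 26.8 ± 0.187% to 45.8 ± 0.884% on day 15 (SD, n = 3). The 8155 lower genes went from 39.8 ± 1.15% to 20.7 ± 0.492% on day 5 and from 40.9 ± 0.351% to 20.9 ± 0.223% on day 15 (SD, n = 3). The groups did not overlap on either day.

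Gene models whose identifiers share the number before the letter g were looked at as pairs in consecutive order. The 38239 tested models held 2261 such pairs. Both members were called in 644 pairs (28.5%), and in 576 of these (89.4%) they moved the same way, downward in 320, with 68 pairs moving in opposite ways. Of single tested genes 44.2% were called, 22.8% higher and 21.3% lower. The share of unrelated pairs with both members called was not computed. Across the 2261 pairs the log2 changes correlated at r = 0.65, a description over gene models that share libraries. Whether such a pair is a single gene split by the annotation, or reads shared between similar models, was not tested.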

How the data were processed

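The deposited table holds unnormalised counts, whole numbers of reads for each gene model. Per the submitters' processing notes, the tools were Trimmomatic, STAR and HTSeq. Their versions, the build, the gene annotation and the use of strand are not stated there or in the labels, so reads of overlapping, antisense or near-identical models cannot be told apart. The 6 libraries compared held 12906630 to 17873110 reads. Of 70736 models, edgeR's filterByExpr kept 38239, leaving out 0.0694 to 0.114% of a library's reads, and 18409 had no read in any library.

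Counts were fitted in R 4.3.3 with edgeR 4.0.16 (TMM factors; quasi-likelihood, robust) as 12 group means over 36 libraries, with 24 residual degrees of freedom, and tested 2-sided with Benjamini-Hochberg adjustment over all tested models. Folds used pooled group levels with a floor of 3 reads over the group. Genes were named as the 2 largest gains and the 2 largest losses in mean CPM among called models with separated libraries and at least 1 CPM. Lists by gene name could not be applied. The comparison, the rule for naming and the groups were chosen with earlier results of these data known. Alternatives used RLE factors, total counts, other filters, limma-voom (limma 3.58.1), DESeq2 1.42.0, fewer libraries, a replicate block and another control. The replicate numbers were not taken to pair the samples.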

Additional observations from a re-analysis of the deposited data

Results flagged for a closer look

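Effects that differed between days were tested as a difference of differences. The effect of the combination at 10 days differed from that at 5 days at 841 genes, and that at 15 days from that at 10 days at 539 genes (edgeR adjusted p below 0.05). Among the named genes, MA_75633g0020 had an effect at 10 days above that at 5 days by a log2 of 0.46 (edgeR adjusted p = 0.012). Its Mock level was 2220 ± 185 CPM at 5 days and 1743 ± 90.9 CPM at 10 days, and its level in the combination 3703 ± 108 and 3996 ± 131 CPM (SD, n = 3).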

How the results depend on the processing

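The counts for the combination against Mock at 10 days stayed within 1.5 times under every alternative run, from 14410 to 19914 genes, with no gene called in opposite directions. They were 7587 to 8133 higher and 7185 to 7690 lower when single libraries were left out. All 4 named genes kept their direction and call. With the replicate block 17203 genes were called, 8896 higher and 8307 lower. Deviations of same-numbered combination and Mock libraries correlated at 0.203, 0.0383 and 0.105, not all over 0.1, so the numbers were not taken to pair samples. Over all groups, same-numbered libraries had a median r of 0.0544 (59 of 198 pairs over 0.1) and other pairs -0.0323 (18 of 396), a hint from the data and not from the labels. Replicate 2 of the combination and replicates 1 and 3 of both groups correlated best with their own number, and replicate 2 of Mock did not. For 10 minus 5 days, leaving out a library gave 484 to 861 genes (189 to 384 more positive, 240 to 526 more negative), and DESeq2 gave 1383 (640 and 743). For 15 minus 10 days these were 68 to 679 (31 to 415 and 37 to 264), with 1067 (689 and 378) in DESeq2, 212 (113 and 99) in limma-voom and 178 (95 and 83) with only the groups compared. With only the groups compared, the combination against BAP gave 4859 genes (2797 above, 2062 below) and the combination between 10 and 15 days 719. Left-out libraries gave 2006 to 2833 genes for the combination between 5 and 10 days and 874 to 2543 between 10 and 15 days. Mock between 5 and 10 days gave 2 to 42 genes with a library left out, 10 without a filter on low counts, 56 with the replicate block, 1 with only the groups compared, 65 with limma-voom and 249 with DESeq2. Mock between 10 and 15 days gave 0 to 1 with a library left out, 2 with limma-voom and 38 with DESeq2. The cause of these shifts was not tested.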
